A study of Mus musculus with 8 samples.

Results

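The genes described here are zinc finger genes and genes of the main transcription factor families, chosen by the start of their symbols from the gene list that the authors deposited for this mouse array study. The rule took every probe set of that list with a single symbol starting with Zfp, Znf, Zbtb, Zscan, Zkscan, Zc3h, Zcchc, Klf, Hox, Fox, Sox, Gata, Irf, Stat, Tcf, Runx, Ets, Etv, Elf, Elk, Fos, Jun, Atf, Creb, Ceb, Mef2, Nfk, Rel, or Nr followed by a digit. It found 35 probe sets of 35 different genes, among 1081 probe sets with a single symbol in the list and 28853 on the arrays. The list itself holds 1264 probe sets that an analysis of variance over these same arrays put at an uncorrected p-value under 0.05. The 35 genes had therefore already been picked for differing between the groups, with p-values of 0.00159 to 0.0493 in the authors' deposited table, where Tcf7l1 lay nearest to the threshold. Other factors of the same families that the list does not name are unnamed here.

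RNA came from total bone marrow of C57/BL6 mice, labelled mir-223-/- or wild type, and was hybridised to 8 arrays in 4 groups of 2. All groups were stimulated for 2 days, cotransduced with retroviral vectors for Hoxa9 and Meis1 on irradiated producer cells, sorted for YFP and kept in neomycin at 1.4 mg/ml. KO_223mut and KO_starmut are mir-223-/- cells, and their names are taken to mean a miR-223 vector whose guide strand or passenger strand was altered. KO_MIG is mir-223-/- cells with the name MIG alone, and WT_MIG is wild-type cells with the same name. The labels spell out neither MIG nor the mutations. Hoxa9 and Meis1, which drive leukaemia when overexpressed together, were thus present in every group, the wild type included, and the cells are a selected culture and not fresh marrow. The series calls the 2 arrays of a group, numbered 2 and 3, biological replicates. Nothing says that they stem from separate animals or cultures, and a p-value then reflects only how far these arrays lie apart.

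Each value below is a log2 signal minus the median of its probe set over the 8 arrays. It shows in which samples a gene was higher or lower and carries no level of expression, so genes are compared by their differences only. Array medians lay between -0.0126 and 0.0109, and none of the 9 blank cells of the table fell in the 35 genes. The probe set listed under Mir223 and F630028O10Rik read 0.01 and 0.04 in KO_223mut, -0.08 and 0.15 in KO_starmut, -0.01 and 0.14 in KO_MIG, and -0.98 and -1.07 in WT_MIG. It was thus higher in every array labelled knockout, by 1.04 ± 0.09 in KO_223mut, 1.06 ± 0.09 in KO_starmut and 1.09 ± 0.09 in KO_MIG against WT_MIG (SE, limma adjusted p = 0.00659, 0.00746 and 0.0104). No label or header places its probes relative to the deletion. It therefore cannot serve as a check of the genotype, and the directions below rest on the labels.

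The miR-223 hairpin gives a guide strand, miR-223-3p, and a passenger strand, miR-223-5p, and both are shown because the names of the mutant groups appear to refer to these strands. A microRNA pairs with messenger RNAs mainly through its seed, bases 2 to 8, shown in capitals in the mature sequences (RefSeq, GRCm38.p6).
mmu-miR-223-3p (chrX:96242884-96242905, plus strand): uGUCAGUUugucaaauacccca
mmu-miR-223-5p (chrX:96242842-96242864, plus strand): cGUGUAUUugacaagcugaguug
The seeds differ, so the strands do not belong to a common seed family. In marrow, miR-223 is known for its high level in granulocytes and their precursors and as a brake on several transcription factors.

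The families act at different steps. KRAB and BTB zinc finger proteins mostly silence genes by recruiting corepressors, and homeobox, ETS, forkhead, GATA and TCF factors bind regulatory DNA to set cell identity. AP-1 and STAT factors carry signals from receptors into the nucleus. CCHC and CCCH zinc fingers often bind RNA rather than DNA, and several control how fast messenger RNAs decay or how cells sense foreign nucleic acid.

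Zcchc3 was the gene that differed most. With limma fitted on group alone, it was the only member that passed an adjusted p of 0.05 in any comparison. It encodes a CCHC zinc finger protein that binds nucleic acids and assists innate sensors of viral DNA and RNA. Its signal read 0.06 and -0.33 in KO_223mut, -0.15 and -0.37 in KO_starmut, 0.13 and -0.06 in KO_MIG, and 0.92 and 0.96 in WT_MIG. All 6 knockout arrays lay far below both wild-type arrays, and the knockout groups overlapped among themselves except KO_starmut and KO_MIG. Zcchc3 fell 2.10-fold in KO_223mut against WT_MIG (log2 difference -1.07 ± 0.14, SE, 2 arrays a group, limma adjusted p = 0.0158). It fell 2.29-fold in KO_starmut against WT_MIG (-1.20 ± 0.14, limma adjusted p = 0.0200). The difference of KO_MIG from WT_MIG was similar in size, -0.90 ± 0.14 or 1.87-fold lower. It missed the threshold in this fit on group alone (limma adjusted p = 0.0945). Over the 4 groups together, the moderated F test of limma called Zcchc3 alone of the 35 members (adjusted p = 0.0373), where 0.44% of all probe sets were called. Without any 1 of the 8 arrays, the F test called 0 members. An unadjusted p under 0.05 in that test was reached by 14 members, against 7.3% of all probe sets. The members had been picked by a test over these same groups and arrays, so their share is only a description.

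Both calls of Zcchc3 rested on all the arrays of the groups compared. Without KO_223mut replicate 2 or replicate 3 the difference from WT_MIG was -1.26 or -0.88 (limma adjusted p = 0.0543 and 0.0573), and without WT_MIG replicate 2 or replicate 3 it was -1.09 or -1.05 (adjusted p = 0.112 and 0.0903). For KO_starmut the adjusted p was 0.0900 and 0.123 without its own replicate 2 or replicate 3, and 0.113 and 0.104 without that replicate of WT_MIG, at differences of -1.31 to -1.08. The direction held in every case. Among the 20 protein-coding genes nearest to Zcchc3 in the RefSeq gene table, none is named in a single-symbol row of the authors' list. The stretch around its start site is shown because Zcchc3 carries the only calls (RefSeq, GRCm38.p6, 250 bases before to 50 after the start, a match to the GC box letters GGGCGG in capitals).
Zcchc3 (chr2:152414995-152415294, minus strand): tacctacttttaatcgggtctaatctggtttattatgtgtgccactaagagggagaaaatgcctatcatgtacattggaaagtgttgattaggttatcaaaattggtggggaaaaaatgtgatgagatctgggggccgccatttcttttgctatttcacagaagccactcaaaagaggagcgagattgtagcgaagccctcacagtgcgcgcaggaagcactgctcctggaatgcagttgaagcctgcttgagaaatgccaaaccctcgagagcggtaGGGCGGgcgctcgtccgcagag
It holds 1 GC box match and no match to TGACAG, the letters that Meis proteins prefer, or to TGATTTA, those that Pbx and Hox proteins bind together.

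**Figure D1:**
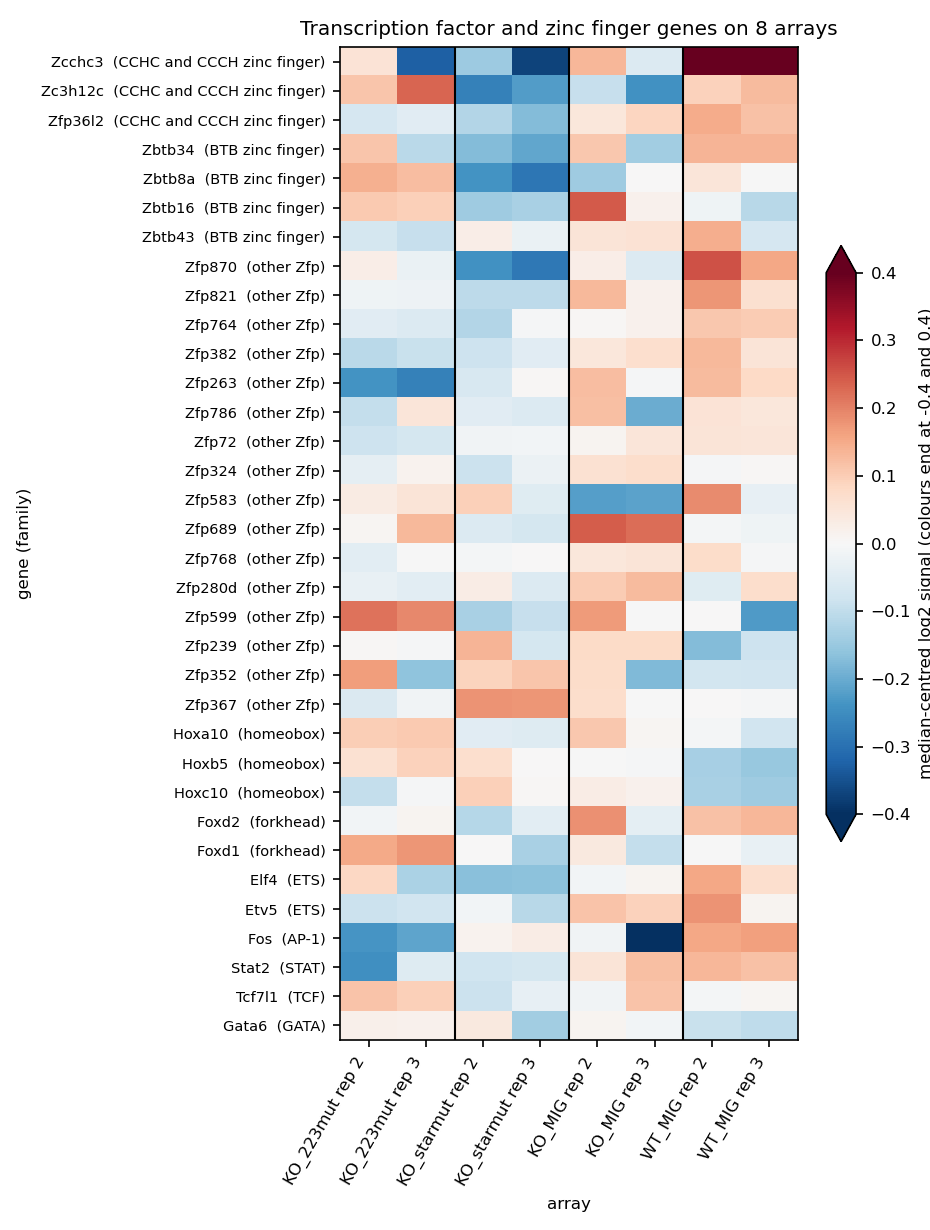
Median-centred log2 signal (colour, ending at -0.4 and 0.4) of 34 of the 35 genes (rows, with family) on the 8 arrays (columns, 2 replicates of KO_223mut, KO_starmut, KO_MIG and WT_MIG). Zcchc3 exceeds the scale in both WT_MIG arrays at 0.92 and 0.96 and Fos in KO_MIG replicate 3 at -0.45, and most zinc finger rows are blue in KO_starmut.

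The other RNA-binding zinc finger genes differed less. Zc3h12c, an RNase of the Regnase family that cuts inflammatory messenger RNAs, read 0.11 and 0.23 in KO_223mut, -0.27 and -0.22 in KO_starmut, -0.09 and -0.24 in KO_MIG, and 0.09 and 0.13 in WT_MIG. KO_starmut and KO_MIG both lay below KO_223mut and WT_MIG without overlap. Zc3h12c differed by -0.36 ± 0.08 between KO_starmut and WT_MIG and by -0.28 ± 0.08 between KO_MIG and WT_MIG (limma adjusted p = 0.155 and 0.490), and in KO_223mut by 0.34 ± 0.08 from KO_MIG (adjusted p = 1). Zfp36l2, which binds AU-rich elements of messenger RNAs and promotes their decay, read -0.07 and -0.05 in KO_223mut, -0.12 and -0.17 in KO_starmut, 0.05 and 0.08 in KO_MIG, and 0.15 and 0.12 in WT_MIG. The 4 groups followed in a strict order without overlap, lowest in KO_starmut and highest in WT_MIG. Its difference was -0.28 ± 0.06 in KO_starmut and -0.19 ± 0.06 in KO_223mut against WT_MIG (limma adjusted p = 0.163 and 0.355).

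**Figure D2:**
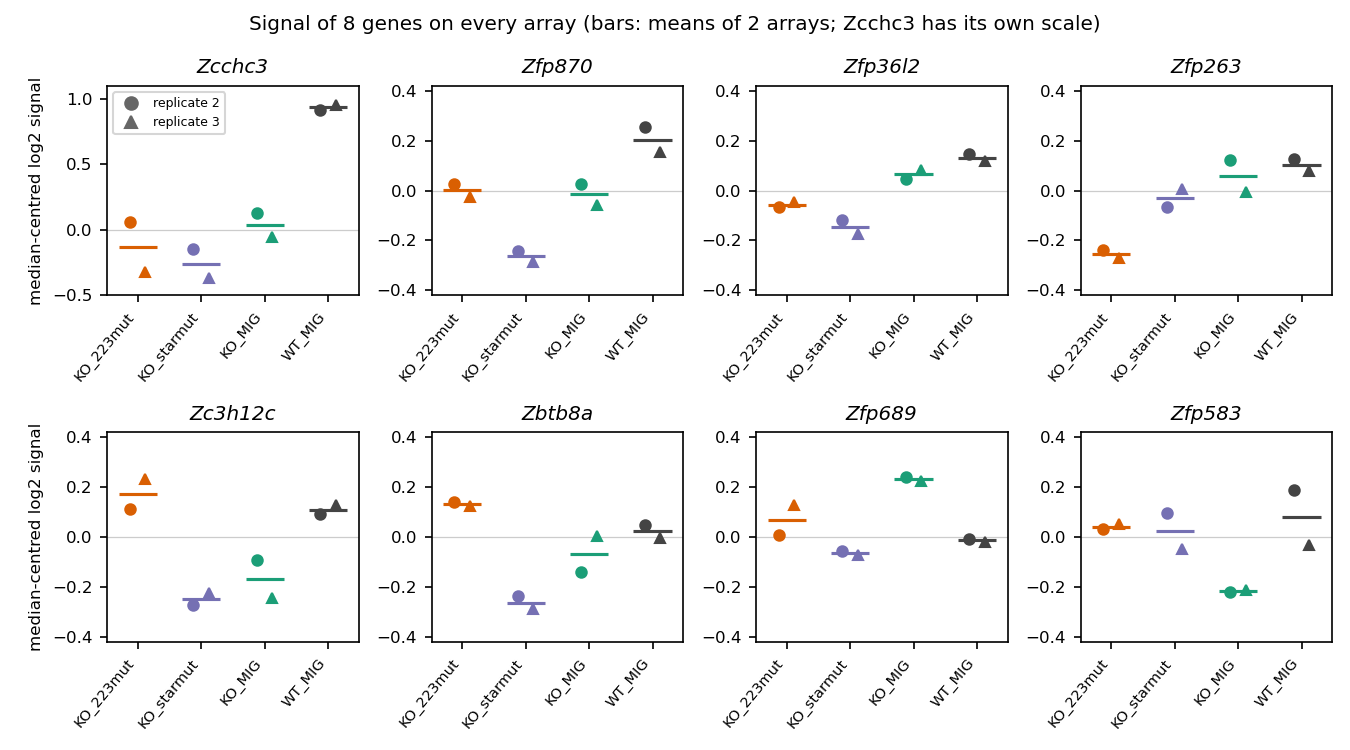
Median-centred log2 signal of 8 genes on every array (circles replicate 2, triangles replicate 3, bars means of 2 arrays), with a scale of its own for Zcchc3. Zcchc3 separates both WT_MIG arrays from all others, Zfp870 and Zbtb8a are lowest in KO_starmut, Zfp263 in KO_223mut, and Zfp689 and Zfp583 stand apart in KO_MIG.

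All 4 BTB zinc finger genes had lower means in KO_starmut than in KO_MIG and in WT_MIG, with none called. Zbtb8a read 0.14 and 0.12 in KO_223mut, -0.24 and -0.29 in KO_starmut, -0.14 and 0.0029 in KO_MIG, and 0.05 and -0.0029 in WT_MIG. KO_starmut lay below every other array and KO_223mut above every other array. Its difference was -0.29 ± 0.07 between KO_starmut and WT_MIG and -0.19 ± 0.07 between KO_starmut and KO_MIG (limma adjusted p = 0.223 and 1). Zbtb34 read 0.11 and -0.11 in KO_223mut, -0.17 and -0.21 in KO_starmut, 0.11 and -0.14 in KO_MIG, and 0.14 and 0.14 in WT_MIG. Its replicates were far apart in KO_223mut and KO_MIG, and KO_starmut differed from WT_MIG by -0.33 ± 0.10 (limma adjusted p = 0.366). Zbtb16, the repressor known as PLZF that is needed for innate-like T cells and for germline stem cells, read 0.11 and 0.09 in KO_223mut, -0.14 and -0.13 in KO_starmut, 0.25 and 0.02 in KO_MIG, and -0.02 and -0.11 in WT_MIG. KO_starmut lay below every other array, with a difference of -0.27 ± 0.09 from KO_MIG and -0.24 ± 0.09 from KO_223mut (limma adjusted p = 1 for both). Without KO_MIG replicate 2, the difference from KO_MIG was -0.15. Zbtb43, the neighbour of Zbtb34, had values between -0.09 and 0.14 on all arrays.

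Among the 17 other Zfp genes, many of which encode KRAB-type repressors, Zfp870 had the largest difference. Zfp870 read 0.03 and -0.03 in KO_223mut, -0.24 and -0.29 in KO_starmut, 0.03 and -0.06 in KO_MIG, and 0.25 and 0.15 in WT_MIG. KO_starmut was lowest and WT_MIG highest, both apart from all other arrays. The difference of KO_starmut from WT_MIG was -0.47 ± 0.07 or 1.38-fold lower, just outside the threshold (limma adjusted p = 0.0578). Zfp263, a SCAN and KRAB repressor, read -0.24 and -0.27 in KO_223mut, -0.07 and 0.01 in KO_starmut, 0.12 and -0.01 in KO_MIG, and 0.13 and 0.08 in WT_MIG. Both KO_223mut arrays lay below the other 6, at -0.36 ± 0.07 from WT_MIG and -0.31 ± 0.07 from KO_MIG (limma adjusted p = 0.103 and 1). Zfp599 read 0.22 and 0.19 in KO_223mut, -0.13 and -0.09 in KO_starmut, 0.17 and -0.0015 in KO_MIG, and 0.0015 and -0.23 in WT_MIG. KO_223mut was above every other array, at 0.32 ± 0.10 from WT_MIG (limma adjusted p = 0.281), or 0.20 without WT_MIG replicate 3.

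A pair of Zfp genes stood apart in KO_MIG, in opposite directions. Zfp689 read 0.01 and 0.13 in KO_223mut, -0.06 and -0.07 in KO_starmut, 0.24 and 0.22 in KO_MIG, and -0.01 and -0.02 in WT_MIG. Zfp583 read 0.03 and 0.05 in KO_223mut, 0.10 and -0.05 in KO_starmut, -0.22 and -0.21 in KO_MIG, and 0.19 and -0.03 in WT_MIG. KO_MIG thus held the highest values of Zfp689 and the lowest of Zfp583 among the 8 arrays. Against WT_MIG the differences were 0.25 ± 0.07 for Zfp689 and -0.30 ± 0.09 for Zfp583 (limma adjusted p = 0.433 and 0.559), and Zfp583 differed by -0.18 without WT_MIG replicate 2. In KO_starmut against KO_MIG they were -0.30 ± 0.07 and 0.24 ± 0.09, and in KO_223mut against KO_MIG -0.16 ± 0.07 and 0.26 ± 0.09 (limma adjusted p = 0.848 to 1). Without KO_223mut replicate 2, Zfp689 differed between KO_223mut and KO_MIG by -0.10. Zfp367, known in human erythroid cells as an activator of globin genes, read -0.06 and -0.01 in KO_223mut, 0.18 and 0.18 in KO_starmut, 0.07 and -7.25e-05 in KO_MIG, and 7.25e-05 and -0.0049 in WT_MIG. Both KO_starmut arrays lay above the other 6, and the difference from WT_MIG, 0.18 ± 0.06, was the largest positive one of the 17 Zfp genes in KO_starmut (limma adjusted p = 0.432). Zfp239, which binds both DNA and RNA, read 0.01 and -0.01 in KO_223mut, 0.13 and -0.07 in KO_starmut, 0.08 and 0.08 in KO_MIG, and -0.17 and -0.08 in WT_MIG. The difference of KO_MIG from WT_MIG was 0.20 ± 0.08 (limma adjusted p = 0.837). The Zfp genes Zfp280d, Zfp324, Zfp352, Zfp382, Zfp72, Zfp764, Zfp768, Zfp786 and Zfp821, had values between -0.20 and 0.18 on all arrays. Genes of this family hold similar repeated fingers, and whether probes of a gene also read its relatives was not tested.

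The 3 homeobox genes had small differences from WT_MIG, mostly above 0. Hoxb5, which marks long-term blood stem cells in mice, read 0.06 and 0.09 in KO_223mut, 0.07 and 0.00023 in KO_starmut, -0.00023 and -0.0054 in KO_MIG, and -0.13 and -0.15 in WT_MIG. Hoxc10, a posterior patterning gene, read -0.09 and -0.0044 in KO_223mut, 0.09 and 0.0044 in KO_starmut, 0.03 and 0.02 in KO_MIG, and -0.13 and -0.14 in WT_MIG. Both had their lowest values in both WT_MIG arrays, apart from all 6 knockout arrays. Hoxb5 differed from WT_MIG by 0.22 ± 0.06 in KO_223mut, 0.17 ± 0.06 in KO_starmut and 0.14 ± 0.06 in KO_MIG (limma adjusted p = 0.260, 0.456 and 0.945). Hoxc10 differed from WT_MIG by 0.09 ± 0.07, 0.19 ± 0.07 and 0.16 ± 0.07 in the same order (limma adjusted p = 0.794, 0.467 and 0.883). Hoxa10, a partner of Meis and Pbx proteins that blocks myeloid differentiation when overexpressed, differed by 0.14 ± 0.07 in KO_223mut, -0.01 ± 0.07 in KO_starmut and 0.10 ± 0.07 in KO_MIG. The differences above 0 in all 3 homeobox genes in KO_223mut and KO_MIG, and in 2 of 3 in KO_starmut, were not called. Over all probe sets, 43.1%, 46% and 52.4% of differences from WT_MIG were below 0 in KO_223mut, KO_MIG and KO_starmut. These comparisons share the WT_MIG arrays, so the signs are not separate observations.

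The signal-dependent factors and the smaller families gave no call either. Fos, an AP-1 subunit induced early by growth signals, read -0.24 and -0.21 in KO_223mut, 0.01 and 0.03 in KO_starmut, -0.01 and -0.45 in KO_MIG, and 0.15 and 0.16 in WT_MIG. Its KO_MIG replicates were further apart than any groups, and the difference of KO_MIG from WT_MIG was -0.17 without replicate 3 of KO_MIG and -0.61 without replicate 2, against -0.39 ± 0.13 with both (limma adjusted p = 0.643). KO_223mut, whose replicates were close, differed from WT_MIG by -0.38 ± 0.13 (limma adjusted p = 0.359). Stat2, which relays type I interferon signals, read -0.24 and -0.05 in KO_223mut, -0.08 and -0.07 in KO_starmut, 0.05 and 0.12 in KO_MIG, and 0.13 and 0.12 in WT_MIG. Both mutant groups lay below KO_MIG and WT_MIG without overlap, and KO_223mut differed from WT_MIG by -0.27 ± 0.08 (limma adjusted p = 0.268), or -0.18 without KO_223mut replicate 2. Etv5, an ETS factor downstream of growth factor receptors, read -0.09 and -0.08 in KO_223mut, -0.01 and -0.11 in KO_starmut, 0.11 and 0.09 in KO_MIG, and 0.18 and 0.01 in WT_MIG. KO_223mut differed from KO_MIG by -0.18 ± 0.08 (limma adjusted p = 1). Elf4, an ETS factor that controls quiescence of blood stem cells, differed between KO_starmut and WT_MIG by -0.28 ± 0.08 (limma adjusted p = 0.321).

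Foxd1, a forkhead factor of the kidney stroma, read 0.15 and 0.18 in KO_223mut, 0.0027 and -0.13 in KO_starmut, 0.04 and -0.09 in KO_MIG, and -0.0027 and -0.03 in WT_MIG. KO_223mut was above all other arrays, by 0.18 ± 0.08 from WT_MIG and 0.19 ± 0.08 from KO_MIG (limma adjusted p = 0.514 and 1). The difference from KO_MIG was 0.12 without KO_MIG replicate 3. Foxd2, of the same subfamily, differed between KO_starmut and WT_MIG by -0.20 ± 0.08 (limma adjusted p = 0.560). Tcf7l1, a repressor at Wnt target genes, read 0.11 and 0.10 in KO_223mut, -0.09 and -0.03 in KO_starmut, -0.02 and 0.11 in KO_MIG, and -0.01 and 0.01 in WT_MIG. Gata6, known for endoderm and for macrophages of the peritoneum, read 0.02 and 0.02 in KO_223mut, 0.04 and -0.14 in KO_starmut, 0.01 and -0.01 in KO_MIG, and -0.09 and -0.10 in WT_MIG. Neither Tcf7l1 nor Gata6 passed the F test over the 4 groups (unadjusted p = 0.196 and 0.469).

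Counted together, the members gave few calls against wild type. In KO_223mut against WT_MIG, 1 of 35 members passed an adjusted p of 0.05 (Zcchc3), against 0.721% of all probe sets tested. In KO_starmut against WT_MIG it was 1 of 35 (Zcchc3), against 0.246% of all. In KO_MIG against WT_MIG it was 0 of 35, against 0.135% of all. Of the authors' list, from which the members were drawn, 7.59%, 4.19% and 2.45% were called in these comparisons in the same order. At an unadjusted p under 0.05, limma gave 11 members in KO_223mut against WT_MIG, where 9.68% of all probe sets had such a p. Of these, 3 were higher (4.96% of all probe sets) and 8 lower (4.72%). In KO_starmut against WT_MIG it gave 15 members (8.56% of all), 3 higher (3.69%) and 12 lower (4.87%). In KO_MIG against WT_MIG it gave 8 members (5.58% of all), 3 higher (2.96%) and 5 lower (2.63%). Of the authors' whole list, which was picked in the same way as the members, 39.7%, 39% and 26.7% had such a p in these comparisons in the same order.

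**Figure D3:**
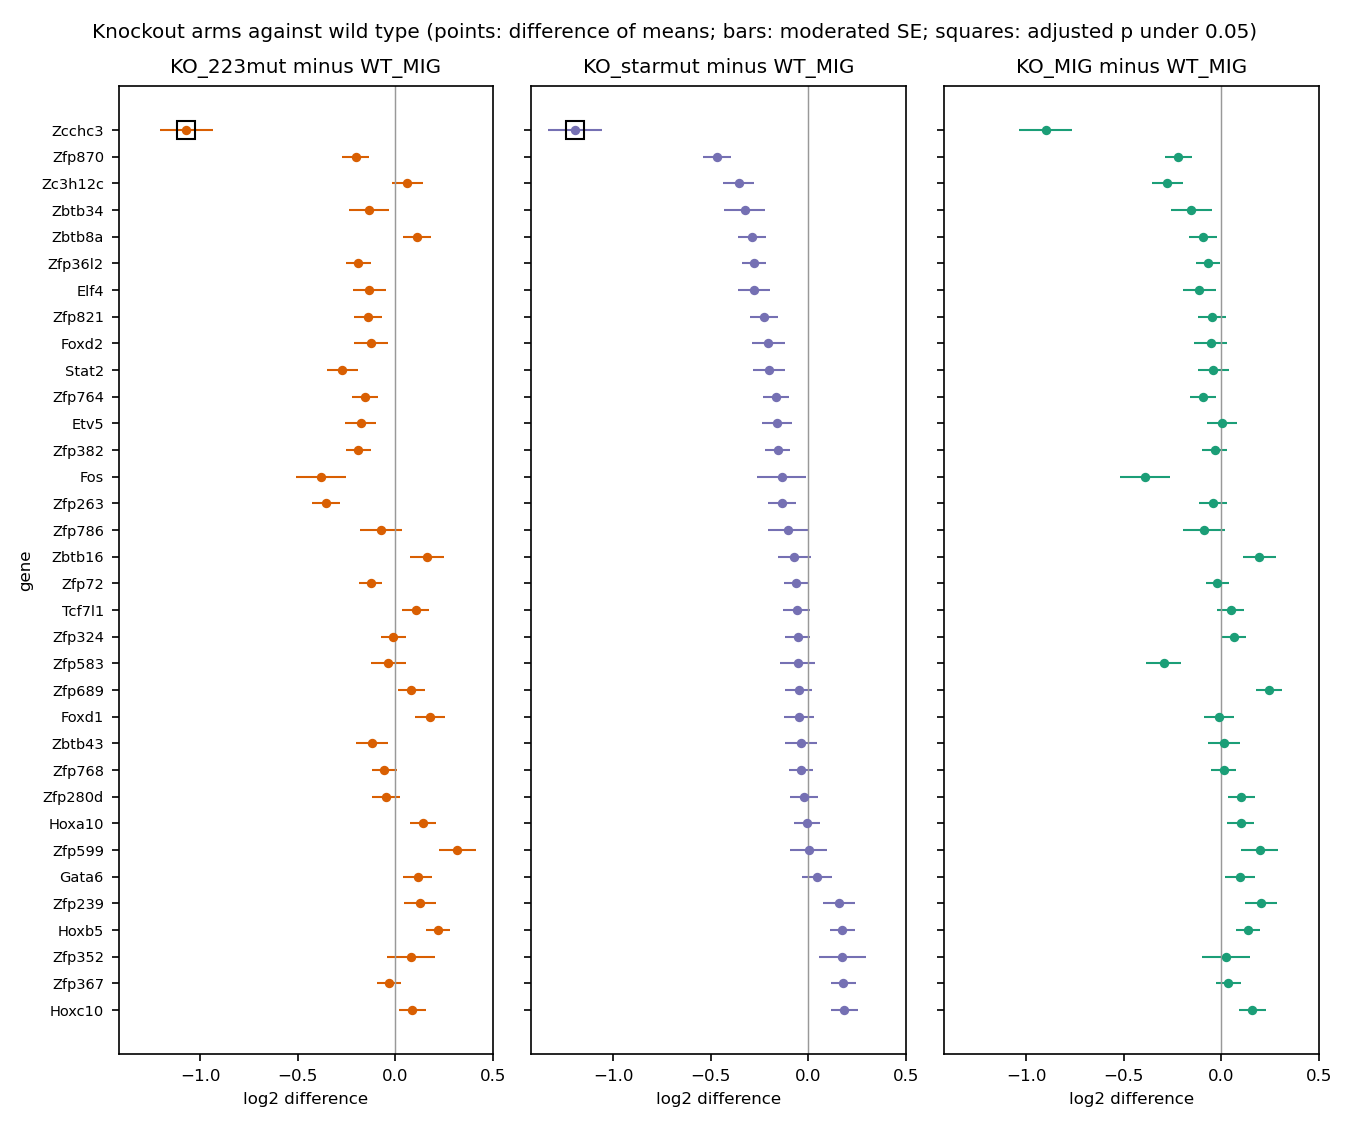
Log2 difference of each knockout group from WT_MIG (points, with moderated SE as bars) for 34 of the 35 genes, ordered by KO_starmut minus WT_MIG, with squares at an adjusted p under 0.05. Zcchc3 lies near -1 in all 3 panels and is called in KO_223mut and KO_starmut, and 27 of 34 points are below 0 in KO_starmut.

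Between knockout groups, limma called 0 of 35 members and 0 of 28853 probe sets (0%) in each of the 3 comparisons. The unadjusted p was under 0.05 for 9 members in KO_223mut against KO_MIG (4.06% of all probe sets), of which 4 were higher (1.75%) and 5 lower (2.31%). It was under 0.05 for 7 members in KO_starmut against KO_MIG (4.2% of all), 1 higher (1.21%) and 6 lower (2.99%). For KO_starmut against KO_223mut it was 9 members (4.71% of all), 2 higher (1.84%) and 7 lower (2.86%). The authors' list had 19.5%, 20% and 20.6% in the 3 comparisons. The smallest p of a member belonged to Zbtb8a and Zc3h12c, both lower in KO_starmut than in KO_223mut, by -0.40 ± 0.07 and -0.42 ± 0.08 on the log2 scale (unadjusted p = 0.000692 and 0.000841, limma adjusted p = 0.866 and 0.887). In the same comparison Zfp599 differed by -0.32 ± 0.10, Zfp870 by -0.26 ± 0.07, Foxd1 by -0.23 ± 0.08 and Tcf7l1 by -0.16 ± 0.07, while Zfp367 and Zfp263 differed by 0.21 ± 0.06 and 0.22 ± 0.07. Zcchc3 differed by -0.12 ± 0.14 between the mutant groups, -0.30 ± 0.14 between KO_starmut and KO_MIG, and -0.17 ± 0.14 between KO_223mut and KO_MIG (limma adjusted p = 1 for each).

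**Figure D4:**
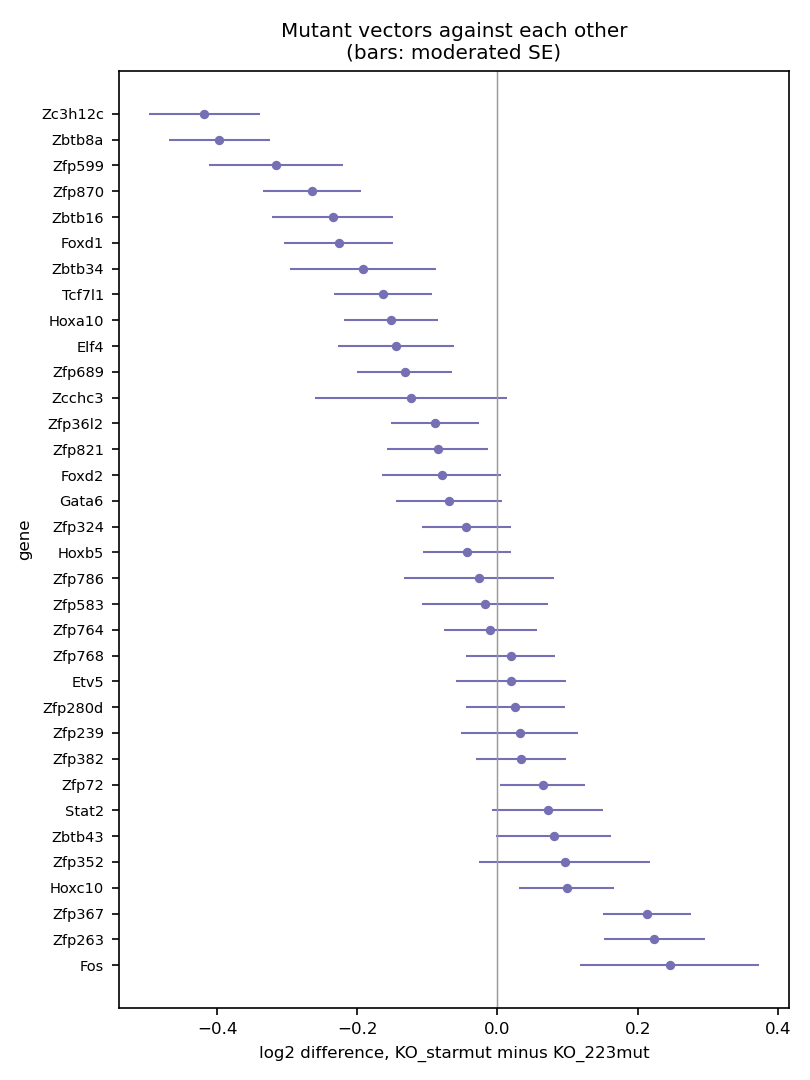
Log2 difference KO_starmut minus KO_223mut (points, with moderated SE as bars) for 34 of the 35 genes, in order of size. Zc3h12c and Zbtb8a have the lowest values, near -0.4, Fos has the highest at 0.25, and no gene passed an adjusted p of 0.05.

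The start sites of Zbtb8a and Zc3h12c are shown because these genes had the smallest p between the mutant groups (RefSeq, GRCm38.p6, same window, GC box matches in capitals as GGGCGG or its complement CCGCCC).
Zbtb8a (chr4:129377979-129378278, minus strand): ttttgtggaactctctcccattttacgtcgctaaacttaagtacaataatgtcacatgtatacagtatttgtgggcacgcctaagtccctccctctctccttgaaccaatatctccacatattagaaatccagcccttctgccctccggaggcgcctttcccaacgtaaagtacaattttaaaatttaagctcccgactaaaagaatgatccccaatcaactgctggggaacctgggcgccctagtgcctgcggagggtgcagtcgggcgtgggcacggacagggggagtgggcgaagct
Zc3h12c (chr9:52168357-52168656, minus strand): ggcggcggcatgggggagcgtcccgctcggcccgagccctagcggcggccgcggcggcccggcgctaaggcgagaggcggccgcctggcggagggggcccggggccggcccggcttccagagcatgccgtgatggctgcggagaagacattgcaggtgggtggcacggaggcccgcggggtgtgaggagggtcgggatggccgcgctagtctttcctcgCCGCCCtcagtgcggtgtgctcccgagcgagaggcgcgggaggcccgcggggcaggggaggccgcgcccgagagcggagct
Zbtb8a holds no GC box match and a GC content of 50.3%, and this start site of Zc3h12c holds 1 match at 77.7%. A second start site of Zc3h12c (chr9:52149314-52149613, minus strand, not printed) holds no match at a GC content of 47%. Start sites were found for 28 of the 35 genes, 37 sequences in all, with a median GC content of 60% against 52.7% over 32851 mouse start sites. GGGCGG, on either strand, was in 22 of the 37 (59.5%, against 35.7% of all). TGACAG was in 11 (29.7%, against 19.2%) and TGATTTA in 2 (5.41%, against 2.97%). These letter matches are a description of the sequences and show no binding.

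Most members had lower means in KO_starmut than in KO_MIG and in WT_MIG, a count made after their values were seen. The difference was below 0 for 29 of 35 members (82.9%) in KO_starmut against KO_MIG, with a median of -0.11, where 60.8% of the authors' list and 56.3% of all probe sets were below 0, with medians of -0.04 and -0.01. Against WT_MIG, 28 of 35 members (80%) were below 0 in KO_starmut, with a median of -0.07, where 50.7% of the list and 52.4% of all were below 0, both with medians of -0.01. These comparisons share the KO_starmut arrays, so the counts are not separate observations. Against KO_223mut, 22 of 35 members (62.9%) were below 0 in KO_starmut, with 59% of the list and 59% of all probe sets. KO_starmut held the lowest mean of the 4 groups for 18 of 35 members (51.4%, against 30.9% of the list), and WT_MIG the highest for 16 (45.7%, against 28% of the list). Leaving out each array in turn gave 26 to 30 members below 0 against KO_MIG and 24 to 29 against WT_MIG, and centring each array on its own median left 29 and 28. The medians moved more than the counts. Against KO_MIG the median was -0.06 without KO_MIG replicate 2, and against WT_MIG it was -0.13 without WT_MIG replicate 3 and -0.11 without KO_starmut replicate 2. There was no overlap between arrays for 27 members in KO_starmut against KO_MIG and 27 against WT_MIG, where 30.6% and 36.8% of all probe sets did not, and the members had been picked for such gaps. The other comparisons had members without overlap as follows, beside the share of all probe sets. There were 26 in KO_223mut against WT_MIG (35.7%), 18 in KO_MIG against WT_MIG (30.3%), 23 in KO_223mut against KO_MIG (28.6%) and 22 in KO_starmut against KO_223mut (32.1%).

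The size of the differences was close to that of the list the members come from. The largest gap between group means had a median of 0.22 over the members, 0.21 over the authors' list and 0.13 over all probe sets. After 1.20 for Zcchc3 came 0.47 for Zfp870, and the smallest gap was 0.07 for Zfp768. Replicates of the members differed by an SD of 0.0822 in KO_223mut, 0.0587 in KO_starmut, 0.111 in KO_MIG and 0.0615 in WT_MIG, against 0.118 to 0.131 over all probe sets. Over the authors' list it was 0.086, 0.066, 0.082 and 0.073 in the same order, so the members lay above the list in KO_MIG only. The analysis of variance that chose the list used these same replicates.

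Related regulators outside the prefixes could be read only where the authors' list names them in a row with a single symbol. Its 138 rows with several symbols were not searched, so named means a single-symbol row here and for the markers below. Of 15 transcription factors reported as miR-223 targets or regulators, 2 were named and 0 called. Lmo2, a bridging cofactor of early blood development, differed from WT_MIG by 0.29 ± 0.09 in KO_223mut, 0.20 ± 0.09 in KO_starmut and 0.41 ± 0.09 in KO_MIG (limma adjusted p = 0.269, 0.593 and 0.185). Sp3, a factor that binds GC boxes, differed by 0.12 ± 0.07, 0.13 ± 0.07 and 0.06 ± 0.07 in the same order. Of 20 Hox and Meis partners and reported targets, 4 were named and 0 called, and Flt3, a cytokine receptor of progenitors, differed from WT_MIG by -0.46 ± 0.12 in KO_223mut, -0.58 ± 0.12 in KO_starmut and -0.22 ± 0.12 in KO_MIG (limma adjusted p = 0.209, 0.127 and 1). Of 64 lineage regulators 3 were named and 0 called, among them Hif1a, the factor of the hypoxia response, at -0.30 ± 0.07 in KO_223mut against WT_MIG (limma adjusted p = 0.129). Of 22 cell cycle and stress factors 2 were named. E2f2, which drives genes of S phase, read -0.23 and -0.25 in KO_223mut, -0.08 and -0.01 in KO_starmut, 0.25 and 0.01 in KO_MIG, and 0.68 and 0.52 in WT_MIG, and fell in KO_223mut against WT_MIG by 0.84 on the log2 scale (SE 0.10, limma adjusted p = 0.00879). None of 21 chromatin partners of KRAB proteins was named.

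Markers of cell types could also be read only where the authors' list names them. Those read had therefore already been picked for differing between the groups, and the other markers of each type were not read. In bulk RNA, fewer cells of a type and less RNA per cell cannot be told apart. Of 16 markers of mature myeloid cells the list names 2, Itgam and Cd68, and both fell in KO_223mut against WT_MIG (log2 differences -1.15 ± 0.10 and -0.48 ± 0.07, limma adjusted p = 0.00659 and 0.0252). Their summed centred signal was -0.76 to -0.72 in KO_223mut, -0.15 to 0.01 in KO_starmut, -0.10 to 0.05 in KO_MIG and 0.76 to 1.02 in WT_MIG. The sum was highest in WT_MIG, as were the means of 16 of 35 members, Zcchc3 and Zfp870 among them. It was lowest in KO_223mut, as were the means of 9 members. Zcchc3, Zfp870 and 16 other members had their lowest mean in KO_starmut instead. Of 5 mast cell and basophil markers Cd200r3 was named, and it rose in KO_starmut against WT_MIG (0.92 ± 0.09, limma adjusted p = 0.0123), with 0.57 to 0.64 in KO_starmut, -0.06 to 0.10 in KO_223mut, -0.02 to 0.02 in KO_MIG and -0.43 to -0.22 in WT_MIG. Among markers of myeloid progenitors, B cells, eosinophils, dendritic cells and fibroblasts or producer cells, 2 of 12, 2 of 9, 1 of 4, 2 of 5 and 2 of 6 were named and 0 called. The 2 progenitor markers, Lmo2 and Flt3, summed to -0.34 to -0.24 in KO_starmut, against 0.26 to 0.33 in KO_MIG. Their sum was -0.07 in both KO_223mut arrays and -0.12 to 0.31 in WT_MIG. Against WT_MIG they moved in opposite directions in every knockout group, Lmo2 upward and Flt3 downward, so the sum describes no joint shift. Igll1, a B cell precursor marker, read -0.15 and -0.06 in KO_starmut, close to -0.11 and -0.04 in WT_MIG. It read 0.04 and 0.09 in KO_223mut and was highest in KO_MIG, at 0.23 and 0.28. The 2 fibroblast or producer cell markers, Dcn and Mmp2, summed to 0.32 to 0.35 in KO_223mut and -0.18 to -0.01 in KO_starmut. Their sum was -0.03 in both KO_MIG arrays and -0.06 to 0.07 in WT_MIG. KO_223mut held the highest mean for 8 of 35 members, Foxd1 and Zfp599 among them, against 32.2% of all probe sets. Single-symbol rows of the list name none of 6 T and NK cell or 8 erythroid and megakaryocyte markers. Since the values are centred, no marker can be read as absent. The part of these cells in the differences of the 35 genes was not tested.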

How the data were processed

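RNA of 8 samples was measured on Affymetrix Mouse Gene 1.0 ST arrays. Per the file headers, the authors summarised signals with RMA16 on annotation na31 and build mm9. The deposited values are log2 signals from which the probe set's own median was subtracted (checked within 7e-07), so filters on dim probe sets could not be applied. The authors' list gives the p-value of a Welch analysis of variance, a signed fold change (a score), a linear fold ratio and a log2 fold change per probe set. Recomputing its p-values gave a largest deviation of 0.00047 (log10). The same test put 1513 of all probe sets (5.25%) under 0.05, with a lowest adjusted p of 0.8. The list holds 1264, so a p-value under 0.05 alone does not give it, and what else narrowed it was not examined.

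Values of all 28853 probe sets on all arrays were fitted with limma 3.58.1 (R 4.3.3) on group alone, with 4 residual and 3.67 prior degrees of freedom. Tests were two-sided, adjusted by Benjamini-Hochberg over all probe sets, and errors are moderated SEs. The code was tested on simulated data. With 2 arrays a group, their number limits the precision. Symbols are those of the list. Coordinates and sequences are from RefSeq tables of GRCm38.p6. Single values of 1 member and of 1 marker are not reported here, while counts include them.

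The members and lists were chosen with earlier results of these data known. Values of every array are given for called members, for the 4 largest differences per direction with an unadjusted p under 0.05 in each comparison, and for the member with the smallest F test p of any other family. Elf4, Foxd2, Hoxa10 and Zbtb43 are described beyond that rule to complete their families. From each list, called genes or else the 2 with the smallest F test p are given. Alternatives were a replicate block, array centring, averaged probe sets, robust or no moderation, only the arrays compared, and each array left out. The counts of members below 0 and their alternatives were chosen after seeing the data.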

Additional observations from a re-analysis of the deposited data

How the results depend on the processing

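Of 40 named differences, recomputed under 14 alternatives each, 546 of 560 values kept their direction and side of the threshold, 11 lost and 3 gained a call, and 0 changed direction. Much of this agreement was fixed in advance, since most of the 40 were not calls to begin with. The replicate block and robust or no moderation cannot change the size or direction of a difference, nor can leaving out arrays of other groups. All the lost calls were those of Zcchc3 in KO_223mut and KO_starmut against WT_MIG, the only calls among the 40. Nothing in the labels ties arrays of the same replicate number together, although deviations of same-numbered arrays correlated at 0.36 to 0.53 in all 6 pairs of groups. With the replicate block, calls over all probe sets became 277 (KO_MIG against WT_MIG), 732 (KO_223mut against WT_MIG), 488 (KO_starmut against WT_MIG), 1 (KO_starmut against KO_223mut) and 374 (F test). Members called with the block were 1, 2, 2 and 2 in the comparisons with WT_MIG and the F test, adding Zcchc3 in KO_MIG (limma adjusted p = 0.0118), Zfp263 in KO_223mut (0.0399) and Zfp870 in KO_starmut (0.0103). Without moderation, 1 probe set was called in each comparison with WT_MIG and in the F test, and 0 members. With only the arrays compared, calls were 5 in KO_MIG, 112 in KO_223mut (0 members, Zcchc3 at 0.0578) and 16 in KO_starmut against WT_MIG. The Welch analysis of variance gave 0 calls and 0 members. Leaving out each array gave 4 to 22 calls in KO_MIG, 8 to 153 in KO_223mut, 19 to 63 in KO_starmut against WT_MIG and 7 to 21 in the F test. Members called were then 0 to 1 in KO_223mut, 0 to 1 in KO_starmut and 0 to 0 in the F test. A group left with 1 array was assumed to vary like the others. The cause of these changes was not tested. Array centring, averaged probe sets and robust moderation changed no call of a named member. Filters on dim probe sets and background correction were not run, since centred values hold no level.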

Other observations

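Some of these genes are neighbours in the RefSeq gene table. Zbtb34 and Zbtb43 have 0 protein-coding genes between them, and Zfp764 and Zfp768 have 1. Zfp689 lies 3 protein-coding genes from Zfp764. Zbtb34 differed by -0.33 ± 0.10 between KO_starmut and WT_MIG, and Zbtb43 by -0.04 ± 0.08. Zfp764 differed by -0.16 ± 0.07 in KO_223mut and -0.17 ± 0.07 in KO_starmut against WT_MIG, where Zfp768 differed by -0.06 ± 0.06 and -0.04 ± 0.06, and Zfp689 by 0.08 ± 0.07 and -0.05 ± 0.07. None of these differences was called by limma.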
